A study of Rattus norvegicus with 4 samples.

Results

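Galectins are proteins that bind beta-galactosides through a carbohydrate recognition domain. They are made in the cytosol, leave the cell by a route that bypasses the secretory pathway, and cross-link glycoproteins and glycolipids at the cell surface. The family is divided into prototype galectins with 1 domain, tandem-repeat galectins with 2 domains on 1 chain, and the chimera galectin-3, which joins its domain to a tail rich in proline and glycine. In the digestive tract, galectin-3 and galectin-4 are made by glandular epithelium, galectin-7 by stratified squamous epithelium, galectin-1 by connective tissue and muscle, and galectin-9 by immune cells among others.

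The family was followed in oxyntic mucosa (the part of the gastric lining that secretes acid) scraped from female Sprague-Dawley rats of 8 weeks, 21 days into treatment with octreotide LAR or the LAR vehicle. Octreotide mimics somatostatin, the peptide that restrains gastrin and histamine release, and was given as a depot (LAR); the labels give a dose of 5 mg per animal and an equal volume of vehicle. One Affymetrix RAE230A chip held RNA pooled from 8 vehicle animals, and 3 chips each held RNA pooled from 2 octreotide LAR animals, called pools 1 to 3. The vehicle sample was grouped by its title, although its source name reads octreotide LAR. All animals had fasted overnight and were anaesthetised with fentanyl, haloperidol and midazolam.

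The 7 galectin genes described, Lgals1, Lgals3, Lgals4, Lgals5, Lgals7, Lgals8 and Lgals9, were chosen by their symbol in the platform annotation, out of 10959 genes with a probe set. All 8 probe sets so annotated were taken, among the 15866 of the deposited table. Of these, 7 name a single gene, and 1 is annotated to both Lgals9 and Lgals5, so that 6 of the 7 genes have a probe set of their own and Lgals5 is seen only through the shared one. Lgals8 has a brighter and a dimmer probe set. Signals of different probe sets are not compared with each other, because each has its own hybridisation strength.

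Median signals were 223.7 to 233.4 over the 4 chips, and correlations between chips, over the log2 values of the probe sets tested, were 0.9588 to 0.9661 within the treated pools and 0.9601 to 0.9654 between them and the vehicle chip. Differences are given as log2(signal + 16), octreotide LAR minus vehicle, and were tested with limma over 9520 probe sets. Of these, 8 passed an adjusted p of 0.05 (Benjamini-Hochberg), or 0.084%; 7 were higher (0.0735%) and 1, Hdc, was lower (0.0105%). With quantile normalization the split was 3 higher and 1 lower. The tissue label matched its markers. The summed signal of the 5 genes listed as parietal, led by the proton pump subunits Atp4a and Atp4b, was 91504 on the vehicle chip. On the treated chips it was 83091 to 93239. It includes Cblif, intrinsic factor, with 21273 on the vehicle chip, so it is the sum of the list and not of parietal cells alone. The summed signal of 5 chief cell genes, Cblif not among them, was 112941 on the vehicle chip and 85760 to 100374 on the treated chips. The members of these lists with the smallest p were Kcnq1 and Kcne2, potassium channel subunits of the acid-secreting membrane, at -0.58 and -0.37, and the chief cell genes Cym and Chia at -1.60 and -0.41; none passed. In the list of enterochromaffin-like cells, the histamine-storing endocrine cells, Hdc passed as lower at -1.59, and Slc18a2 was at -1.14 without passing (limma adjusted p = 0.0044 and 0.072).

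Both galectins that passed the test were higher after octreotide LAR: Lgals4, the galectin of digestive epithelia, and Lgals7, the galectin of stratified squamous epithelium. They were 2 of 8 galectin probe sets, where 0.0735% of all probe sets tested were called higher. Lgals7 could be tested only through its treated signals, and Lgals4 is the 1 call among the other 7, so the share is given as a description. All 3 treated pools also lay above the vehicle chip for Lgals3 and for the probe set shared by Lgals9 and Lgals5, neither of which passed. All treated pools lay below it for the brighter Lgals8 probe set. For Lgals1, Lgals9 and the dimmer Lgals8 probe set the treated pools lay on both sides. Counts of 4 above, 1 below and 3 on both sides compare with 25%, 24% and 51% of all probe sets tested. All 8 probe sets reached the signal level required for testing, a mean of 149.7 over the 4 chips, with Lgals7 at 22.4 on the vehicle chip. An unadjusted p under 0.05 was found for 4 of 8 galectin probe sets, all 4 of them higher. Over all probe sets it was 4.62% in either direction, 2.91% higher and 1.71% lower. Lgals7, tested only through its treated signals, is among these 4 and among the 4 above the vehicle chip, so both counts are a description. By structure, the calls fell on a tandem-repeat galectin and a prototype galectin. In scraped tissue, more cells of a type and more RNA per cell cannot be told apart. With 1 vehicle chip the spread comes from the treated pools alone, and an exact relabelling of the 4 chips cannot give a one-sided p under 0.25 for a single gene.

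**Figure D1:**
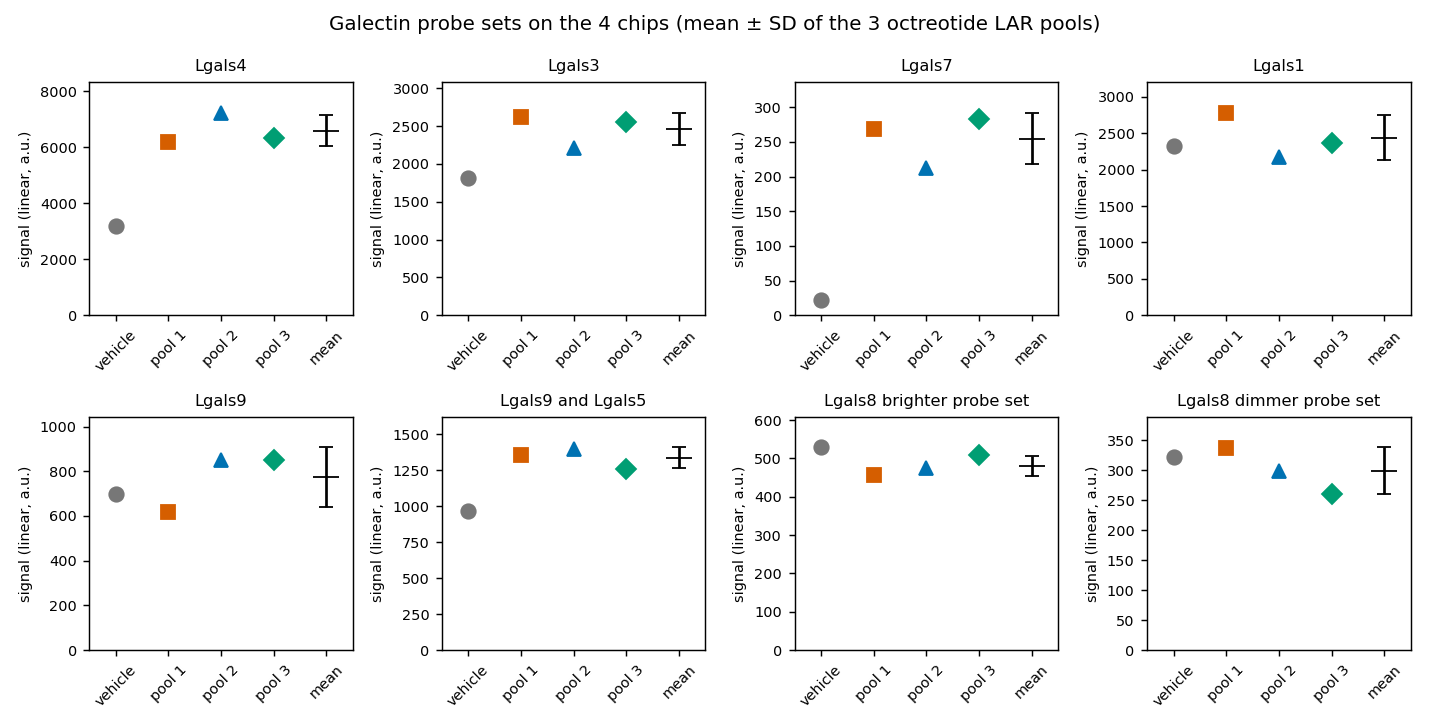
Linear signal (arbitrary units) of each of the 8 galectin probe sets on the vehicle chip and on octreotide LAR pools 1 to 3, with the mean ± SD of the 3 treated pools as the last mark in each panel. Lgals4 and Lgals7 show the vehicle chip well below all treated pools, while the vehicle value lies among the treated values for Lgals1, Lgals9 and the dimmer Lgals8 probe set.

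Lgals4 encodes galectin-4, a tandem-repeat galectin of the gastrointestinal epithelium that binds sulfated glycolipids and takes part in sorting proteins to the apical membrane. Its signal was 3200 on the vehicle chip and 6204, 7232 and 6344 on pools 1, 2 and 3. The groups did not overlap. The treated pools had an SD of 0.12 on the log2 scale, where the median of all probe sets tested was 0.18. That median was not matched for signal, and Lgals4 was bright, at percentile 96.3 of all probe sets on the vehicle chip. The treated mean was 6593 ± 558 (SD, n = 3), 2.05-fold higher at a difference of 1.04, whose 95% interval ran from 0.69 to 1.39 (limma adjusted p = 0.032). By its p it ranked 8 of 9520 and by the size of its difference 58. The difference stayed between 0.97 and 1.08 under all 13 alternatives, and the call held under 8 of them. The 8 include the fits without a treated pool, which keep the same vehicle chip, and a filter added after seeing the data. The call was lost with quantile normalization (limma adjusted p = 0.066), with centring on the 75th percentile (0.055) or the median (0.056), without the filter on dim probe sets (0.56) and with no trend in eBayes (0.49).

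Among the 3 tested markers of absorptive intestinal epithelium, Fabp2, an intestinal fatty acid binding protein, was the 1 that lay above the vehicle chip on all treated pools. Fabp2 had 533.2 on the vehicle chip and 1082, 1488 and 1423 on pools 1, 2 and 3, a difference of 1.28 that did not pass here (limma adjusted p = 0.063). Like Lgals4 it was lowest in pool 1 and highest in pool 2 among treated pools. This order was not particular to Fabp2. Fabp1, Cdx1 and Cdx2 had it too, on both sides of the vehicle chip, while Apoa4, Alpi and Cdh17 did not. Of the 10 genes of the intestinal list, 7 were on the chip and 3 were tested; none passed, 1 had an unadjusted p under 0.05, and the median difference was -0.12 against 0.00 over all probe sets tested. The summed signal of the 7 was 1153 on the vehicle chip and 1591 to 2357 on the treated chips. Without Fabp2 it was 620.0 on the vehicle chip against 509.5, 869.3 and 547.7, on both sides of the vehicle value. Cdx2, the intestinal transcription factor, had 209.7 against 192.0 ± 45.2 (SD, n = 3). No marker of the list was at 0. The part of intestinal-type cells in the Lgals4 difference was not tested.

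By Euclidean distance over the 3 pool differences, the named genes most like Lgals4 were Relb (distance 0.15), Cenpv (0.21) and Pld1 (0.23). Relb, a subunit of the transcription factor NF-kappa-B, had 137.0 on the vehicle chip and 265.2, 300.3 and 291.1 on pools 1, 2 and 3. None of these genes passed, and all had vehicle signals under 149.7.

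Lgals7 encodes galectin-7, a prototype galectin of keratinocytes and other cells of stratified epithelia. Its signal was 22.4 on the vehicle chip and 268.2, 212.8 and 283.8 on pools 1, 2 and 3. The vehicle value was among the dimmest on its chip, at percentile 11.3 of all probe sets, and every treated pool lay far above it. The treated mean was 254.9 ± 37.3 (SD, n = 3), and the difference was 2.81, whose 95% interval ran from 1.91 to 3.70 (limma adjusted p = 0.028). Because the vehicle signal is so dim, the size is set largely by the pseudocount: it was 3.44 with a pseudocount of 1 and 1.88 with 64, and no fold is given. The call held under 8 of the 12 alternatives that tested it. As for Lgals4, the 8 include the fits without a treated pool and the filter added after seeing the data. The call was lost with a pseudocount of 64 (limma adjusted p = 0.054), quantile normalization (0.064), no trend (0.056) and no filter (0.56), and at a filter on the 60th percentile Lgals7 was not tested.

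Markers of the squamous epithelium of the rat forestomach, the keratinised compartment beside the oxyntic mucosa, were higher on the same chips. Of the 14 genes of the list 13 were on the chip and 11 were tested, and 4 passed as higher: Loricrin, an envelope protein, Krt1 and Krt10, the paired suprabasal keratins, and Sprr3, another envelope protein, at 2.28, 2.19, 1.99 and 1.83. Over all probe sets 7, or 0.0735%, were called higher, and these are 4 of the 7. None passed as lower. The median difference of the 11 was 1.71. Of the 11, 5 had a vehicle signal under the level required for testing and were tested through their treated signals. Sprr3, which passed, was 1 of these 5, with 139.4 on the vehicle chip, so the count of calls is a description. The summed signal of the 13 was 2062 on the vehicle chip and 9875, 7065 and 6163 on pools 1, 2 and 3, and no marker was at 0. Lgals7 did not follow that order: it was highest in pool 3, where the summed squamous signal was lowest of the treated pools. Krt5, Krt14, Krt15 and Sfn were lowest in pool 2, as Lgals7 was, but highest in pool 1. Krt5 had 443.0, 297.0 and 350.3 on pools 1, 2 and 3, and Krt14 had 254.7, 150.2 and 230.6. The other tested genes of the list were lowest in pool 3, as the sum was. Krt13, a keratin of wet stratified linings, measured 1633, 610.4 and 594.5 on pools 1, 2 and 3 where the vehicle chip gave 218.6, and did not pass (limma adjusted p = 0.24). Tp63, the master regulator of stratified epithelia, was not tested and had 36.3 against 95.7, 7.7 and 47.2. The part of squamous cells in the Lgals7 and Lgals4 differences was not tested.

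**Figure D2:**
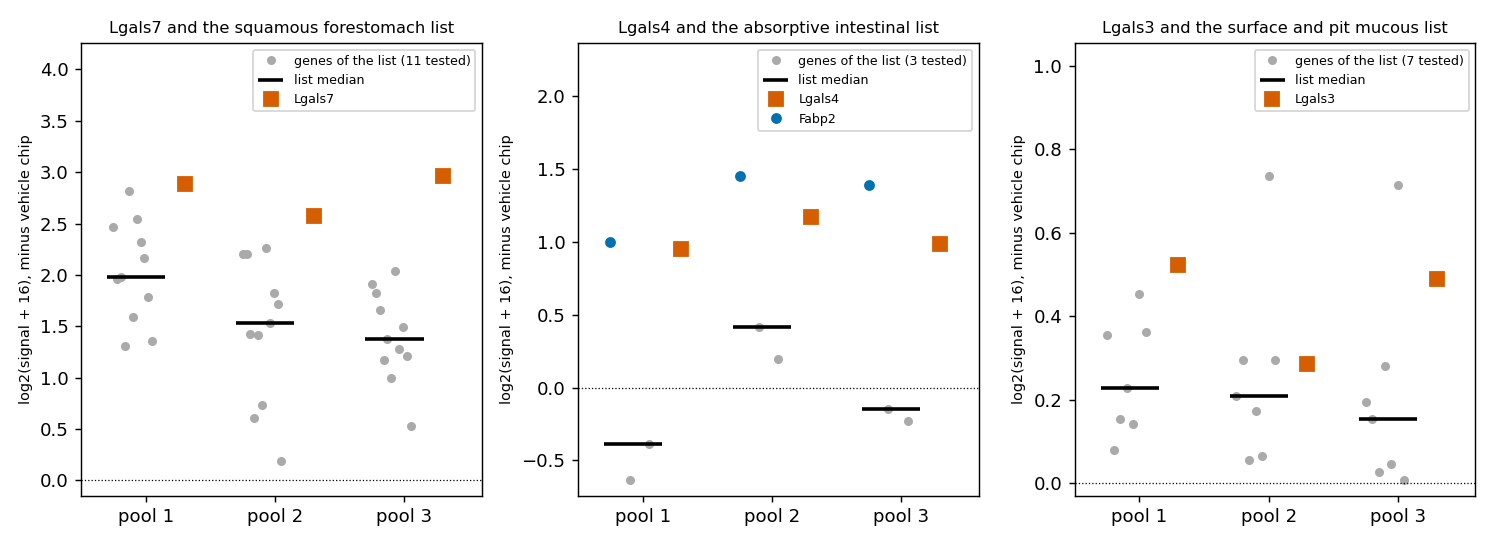
Difference from the vehicle chip in log2(signal + 16) on each treated pool, for Lgals7 beside the 11 squamous genes tested, Lgals4 beside the 3 intestinal genes tested, and Lgals3 beside the 7 surface and pit mucous genes (orange squares: galectin; grey: list genes; blue: Fabp2; bars: list medians). The squamous median is 1.98, 1.53 and 1.38 on pools 1, 2 and 3 and Lgals7 has 2.89, 2.57 and 2.96, and Fabp2 stands apart from the other intestinal genes.

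The named genes with pool differences nearest to those of Lgals7 were Ino80b (distance 0.76), Smad5 (0.99) and a probe set of Ampd2, an AMP deaminase (1.03), none of which passed (limma adjusted p = 0.14, 0.13 and 0.072). All 3 were, like Lgals7, dim on the vehicle chip, with 20.4, 29.9 and 35.4, and were tested through their treated signals, so the distances depend on the pseudocount and are a description only.

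Lgals4 and Lgals7 are direct neighbours on the chromosome in the RefSeq gene order of the GRCr8 assembly, with 0 protein-coding genes between them. Among the 5 protein-coding genes on each side of the pair, 8 of 10 were on the chip and 6 were tested. None passed, the smallest limma adjusted p was 0.9998, and their differences ran from -0.22 for Nfkbib, an inhibitor of NF-kappa-B, to 0.42 for Sirt2, a deacetylase. Ech1, an enzyme of fatty acid oxidation next to Lgals4, had 2212 against 2640 ± 231 (SD, n = 3), a difference of 0.25. The 250 bases before the annotated start of each gene are shown because the pair was called together. They are from RefSeq, build GRCr8, written 5′ to 3′ on the gene's strand, with matches to the motifs named after them in capitals.
Lgals4 (chr1:93252035-93252284, plus strand): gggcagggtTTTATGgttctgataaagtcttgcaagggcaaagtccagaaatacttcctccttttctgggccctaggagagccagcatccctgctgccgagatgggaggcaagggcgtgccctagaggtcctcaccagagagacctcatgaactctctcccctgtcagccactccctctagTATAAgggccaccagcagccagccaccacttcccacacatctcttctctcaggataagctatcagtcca
Lgals7 (chr1:93277524-93277773, plus strand): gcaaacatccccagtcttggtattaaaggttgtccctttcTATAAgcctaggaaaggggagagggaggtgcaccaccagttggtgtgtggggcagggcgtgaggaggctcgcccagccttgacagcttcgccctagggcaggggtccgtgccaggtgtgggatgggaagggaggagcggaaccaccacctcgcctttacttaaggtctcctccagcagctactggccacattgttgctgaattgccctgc
Both strands were searched for TATAA (the TATA box core), TTTATG (a core of caudal-type, CDX, sites), TGANTCA (AP-1) and CACCC (the KLF-type box). The Lgals4 window holds TTTATG from 241 bases and TATAA from 69 bases before the start, and the matches do not overlap. The Lgals7 window holds TATAA from 210 bases before the start. Neither window holds TGANTCA or CACCC. Over 33469 promoter windows of this length, TATAA was present in 24%, TTTATG in 11.4%, TGANTCA in 6.34% and CACCC in 49.2%. The Lgals4 and Lgals7 windows were 47.3% identical in a global alignment, over all columns with gaps included. That lies within the 43.75% to 48.7% of the pairs among the 5 galectin windows other than Lgals5 with Lgals9.

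Lgals3 encodes galectin-3, the chimera galectin, made by surface epithelial cells of the stomach and by macrophages. Its signal was 1815 on the vehicle chip and 2615, 2214 and 2553 on pools 1, 2 and 3. Every treated pool lay above the vehicle chip, with pool 2 closest to it. The treated mean was 2461 ± 216 (SD, n = 3), and the difference of 0.43, whose 95% interval ran from 0.05 to 0.82, missed the threshold (limma adjusted p = 0.9998, and at least 0.55 under every alternative). Within each chip Lgals4 was higher relative to Lgals3 than on the vehicle chip, by 0.43, 0.89 and 0.50 on pools 1, 2 and 3; this difference was not tested.

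Markers of surface and pit mucous cells also lay above the vehicle chip. Of the 8 list genes 7 were on the chip, and none passed. All 7 lay above the vehicle value on all treated pools, where 25% of all probe sets tested did. Some did so by very little, such as Krt20 by 0.007 in pool 3. The median difference of the 7 was 0.22, and 1 had an unadjusted p under 0.05. Their summed signal was 144365 on the vehicle chip and 161866, 162082 and 155726 on pools 1, 2 and 3. The sum was highest in pool 2, where treated Lgals3 was lowest. Its brightest gene, Gkn1, also peaked there, with 46854, 54379 and 49294 on pools 1, 2 and 3. The list median was highest in pool 1, as Lgals3 was, and lowest in pool 3, with 0.23, 0.21 and 0.15 on pools 1, 2 and 3. Capn8, a calpain of gastric mucous cells, was at 0.64 and Muc5ac, the main surface mucin, at 0.25. Of 9 macrophage genes 7 were on the chip and 4 were tested, with a median of 0.21 and none passed or below an unadjusted p of 0.05. Their summed signal was 2078 on the vehicle chip and 2204, 1807 and 2511 on pools 1, 2 and 3, lowest in pool 2. The complement genes C1qb and C1qa, made by tissue macrophages, were at 0.69 and 0.42, Lyz2, a macrophage lysozyme, at -0.01 and Csf1r, the receptor of a macrophage growth factor, at -0.08. Cd68 and Cd14, too dim to be tested, lay below the vehicle chip on all treated pools. Cd68 had 158.5 against 126.2, 38.1 and 137.1, and Cd14 had 153.5 against 132.6, 94.7 and 139.5. Itgam, also too dim to be tested, lay above the vehicle chip on all treated pools, with 14.6 against 23.3, 25.1 and 15.4. No marker of either list was at 0. The part of these cells in the Lgals3 values was not tested. The named genes most like Lgals3 over the 3 pools were Surf1 (distance 0.05), Anxa7 (0.06) and Syt5 (0.06).

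Lgals1 encodes galectin-1, a prototype galectin that forms dimers, is abundant in fibroblasts and smooth muscle and can trigger death of activated T cells. Its signal was 2328 on the vehicle chip and 2782, 2175 and 2361 on pools 1, 2 and 3. The vehicle value lay between those of pools 2 and 3, so the groups overlapped. The treated mean was 2439 ± 311 (SD, n = 3), and the difference of 0.06 had a 95% interval of -0.34 to 0.46 (limma adjusted p = 0.9998); without pool 1 it was -0.038. The summed signal of 6 smooth muscle genes was 45888 on the vehicle chip and 54464, 43718.5 and 40893 on pools 1, 2 and 3, highest in pool 1 as for Lgals1. Their median difference was 0.00 and none passed; Cnn1 and Myh11, a calponin and a myosin heavy chain, were at -0.15 and 0.07. The 9 fibroblast genes had a summed signal of 40974 on the vehicle chip and 41999, 39983 and 40939 on pools 1, 2 and 3. This sum was also highest in pool 1, and it was lowest in pool 2 as Lgals1 was. Their median difference was 0.00, and none passed. Col1a1, a collagen chain, was at -0.35 and Lum, a matrix proteoglycan, at 0.39. No gene of these lists had an unadjusted p under 0.05, and none was at 0. The named genes most like Lgals1 were Dnajb4, Stard10 and Slc4a2, each at a distance of 0.02, which went both ways as Lgals1 did.

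Lgals9 encodes galectin-9, a tandem-repeat galectin known as an attractant of eosinophils and a ligand of the T cell receptor Tim-3. Its own probe set had 696.7 on the vehicle chip and 618.8, 850.9 and 849.0 on pools 1, 2 and 3. Pool 1 lay below the vehicle chip and the other pools above it. The treated mean was 772.9 ± 133 (SD, n = 3), and the difference of 0.13 had a 95% interval of -0.38 to 0.64 (limma adjusted p = 0.9998). It rested on single pools, being 0.28, 0.056 and 0.058 without pools 1, 2 and 3.

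The probe set annotated to Lgals9 and Lgals5 gave another picture. Lgals5 encodes galectin-5, a prototype galectin of rat reticulocytes and red blood cells. The shared probe set had 967.0 on the vehicle chip and 1357, 1398 and 1261 on pools 1, 2 and 3. All treated pools lay above the vehicle chip with an SD of 0.08 on the log2 scale, narrower than the 0.26 of the Lgals9 probe set. The treated mean was 1338 ± 70.1 (SD, n = 3), and the difference of 0.46, whose 95% interval ran from 0.06 to 0.87, missed the threshold (limma adjusted p = 0.9998, and at least 0.60 under every alternative). The shared probe set thus exceeded the Lgals9 probe set in its difference by 0.65, 0.24 and 0.10 on pools 1, 2 and 3, with pool 1 the widest; this gap was not tested. Which gene the shared signal comes from cannot be told apart.

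The sequences before the annotated starts of Lgals5 and Lgals9 are shown because a probe set is annotated to both genes. They show how alike these windows are, and not how alike the transcripts are that the probe set measures. They are from RefSeq, build GRCr8, written 5′ to 3′ on the gene's strand, and the capitals mark their longest shared run of 82 bases.
Lgals5 (chr10:64355138-64355387, minus strand): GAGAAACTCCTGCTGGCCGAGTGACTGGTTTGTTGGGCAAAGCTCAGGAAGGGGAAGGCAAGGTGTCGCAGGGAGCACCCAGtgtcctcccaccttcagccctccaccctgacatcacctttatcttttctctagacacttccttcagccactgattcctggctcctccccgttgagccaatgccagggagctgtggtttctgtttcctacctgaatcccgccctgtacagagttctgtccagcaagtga
Lgals9 (chr10:64428071-64428320, minus strand): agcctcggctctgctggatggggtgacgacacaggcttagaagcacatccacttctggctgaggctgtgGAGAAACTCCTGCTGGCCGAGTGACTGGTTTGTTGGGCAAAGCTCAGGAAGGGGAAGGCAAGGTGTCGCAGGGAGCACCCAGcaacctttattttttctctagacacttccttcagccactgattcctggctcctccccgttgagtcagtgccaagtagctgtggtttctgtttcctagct
The run lies 250 to 169 bases before the start of Lgals5 and 181 to 100 bases before that of Lgals9. It begins at the first base of the Lgals5 window, so it may extend beyond the window, and 82 bases is a minimum. The windows were 54.9% identical in a global alignment, the highest of the pairs among the 5 galectin genes with a promoter in the table. That is 175 identical bases over 319 columns, gaps included. Gap columns lower the percent where the windows are shifted, so it understates how alike the aligned stretches are. Lgals1 and Lgals3 were not matched there.

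The summed signal of the red blood cell list was lower, and that of the lymphocyte list higher, on every treated chip than on the vehicle chip. Each sum came mostly from a single gene, Hbb and Cd74, so neither stands for its list as a whole. Of 9 red blood cell genes 4 were on the chip, with a summed signal of 2908 on the vehicle chip and 1887 to 2762 on the treated chips. Hbb, a beta globin, made up most of it, with 2472 on the vehicle chip and 2400, 1477 and 1750 on pools 1, 2 and 3. Only Hbb was tested, and at -0.42 it did not pass (limma adjusted p = 0.9998). Hbb was lower on all treated pools, where the shared probe set was higher. Of the genes not tested, Slc4a1 was lower on all treated pools, while Alas2 and Epor lay on both sides. Alas2 had 130.2 against 234.4, 83.7 and 101.0, and Epor had 129.9 against 32.1, 201.8 and 86.0. Of 11 lymphocyte genes 9 were on the chip, with a summed signal of 2626 against 2860 to 3480. Cd74, the invariant chain of MHC class II, made up most of it at 2124 against 2524 ± 340 (SD, n = 3), a difference of 0.24. The T cell receptor chain Cd3g, the other gene tested, was at 0.13. Further T cell markers, too dim to be tested, went both ways. On all treated pools, Cd3d (54.5 against 9.0, 46.3 and 47.0) and Cd2 (76.4 against 22, 25.1 and 63.8) lay below the vehicle chip. Cd3e, Cd4 and Cd8a lay above it on all treated pools. Cd3e had 51.8 against 63.2, 109.2 and 65.4, Cd4 68.8 against 136.2, 137.9 and 71.6, and Cd8a 7 against 9.7, 12.2 and 11.2. Ptprc, the pan-leukocyte marker, and Cd79b, a B cell receptor chain, lay on both sides, with 59.8 against 55.1, 109.1 and 98.2 and with 17.7 against 14.7, 16.7 and 20.9. None of the genes tested passed or had an unadjusted p under 0.05, and no marker was at 0. The part of blood and immune cells in the values of either Lgals9 probe set was not tested.

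Lgals8 encodes galectin-8, a broadly expressed tandem-repeat galectin that marks damaged vesicles for autophagy. Its brighter probe set had 528.4 on the vehicle chip and 456.5, 475.4 and 509.6 on pools 1, 2 and 3. All treated pools lay slightly below the vehicle chip, with a difference of -0.13 and a 95% interval from -0.62 to 0.35. The dimmer probe set had 321.4 against 337.5, 299.0 and 259.5, on both sides of the vehicle value, with a difference of -0.11 and an interval from -0.71 to 0.50. Neither passed (limma adjusted p = 0.9998 for both). Over the treated pools the brighter was lowest in pool 1 and the dimmer in pool 3. The dimmer value rested on single pools: it was -0.20, -0.11 and -0.016 without pools 1, 2 and 3, where the brighter was at -0.099, -0.13 and -0.18.

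**Figure D3:**
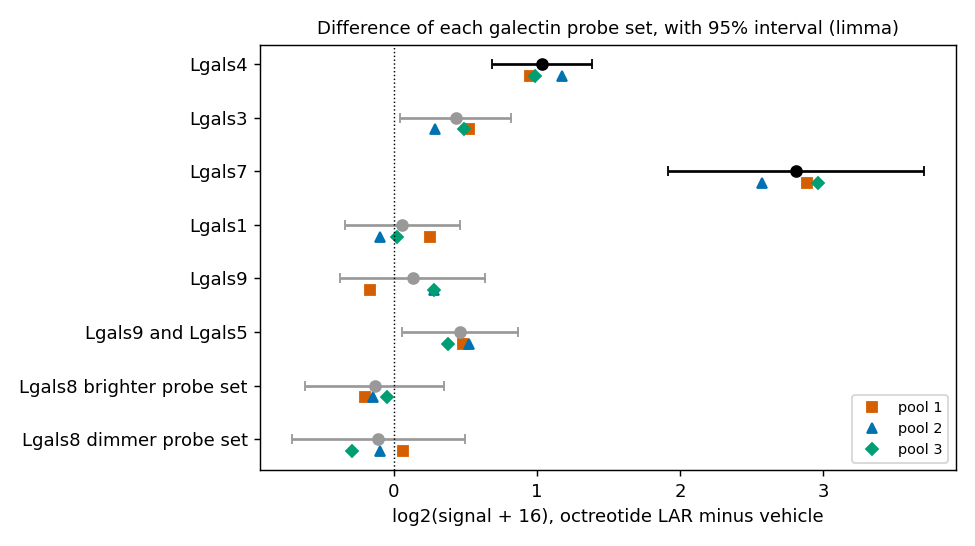
Difference between octreotide LAR and vehicle in log2(signal + 16) for the 8 galectin probe sets, as the mean with its 95% interval (black where the limma adjusted p was under 0.05, grey otherwise), with the value of each treated pool below it. Only the intervals of Lgals4, from 0.69 to 1.39, and Lgals7, from 1.91 to 3.70, are drawn in black, and that of Lgals7 is the widest.

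Galectins act on glycans of other proteins, so a list of galectin-binding glycoproteins, glycan-building enzymes and intracellular partners was examined beside them. Of its 39 genes 32 were on the chip and 26 were tested, and limma called 0 of them in either direction; 2 had an unadjusted p under 0.05. The median difference was 0.06, against 0.00 over all probe sets tested. All treated pools were above the vehicle chip for 7 of the 26 and below it for 4, where 25% and 24% of all probe sets were. The smallest p values belonged to Anxa7, an annexin known as an intracellular partner of galectin-3, with 1503 against 2007 ± 163 (SD, n = 3), and Man2a1, a Golgi mannosidase of N-glycan maturation, with 3268 against 2520 ± 97.0 (SD, n = 3). Their differences were 0.41 and -0.37, and neither passed (limma adjusted p = 0.9998 for both). Lgals3bp, a secreted glycoprotein bound by galectin-3, had 242.6 against 259.7, 192.9 and 257.7 on pools 1, 2 and 3. Lamp1 and Lamp2, heavily glycosylated lysosomal membrane proteins, differed by 0.07 and -0.10. Mgat1 and Mgat2, which start the branching of N-glycans, differed by 0.22 and 0.29, while Mgat4a and Mgat4b, which add a further branch, differed by -0.20 and -0.06. Mgat5, whose branches carry preferred galectin ligands, was too dim to be tested, with 9.3 against 13.7 ± 3.80 (SD, n = 3).

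**Figure D4:**
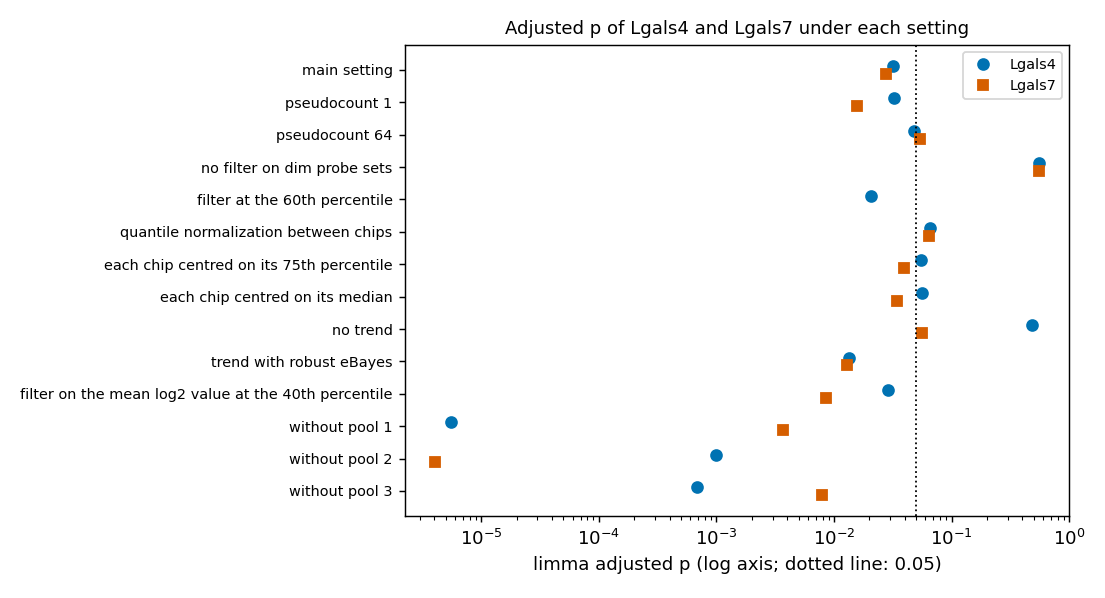
Limma adjusted p of Lgals4 and Lgals7 (log axis, dotted line at 0.05) under the main setting and each alternative; Lgals7 has no value with the filter at the 60th percentile. Both lie at 0.56 without the filter on dim probe sets and far below 0.05 when a treated pool is left out, where the same vehicle chip is kept and the spread comes from 2 pools.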

How the data were processed

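The deposited values are linear intensities, 1 for each probe set on each chip; how they were computed and scaled is not given in the sources used here. Total RNA had been purified on Qiagen RNeasy columns and turned into biotin-labelled cRNA, per the labels' protocols. Per the experiment headers, the chips shared 1 lot, wash protocol and hybridisation date, and each used its own fluidics module. Names come from the platform annotation, with symbols brought up to date through Entrez IDs (12748 of 12783 single-gene probe sets matched).

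Signals were transformed as log2(signal + 16). Probe sets with a mean signal over all 4 chips under the 40th percentile (149.7) were left out. limma 3.58.1 in R 4.3.3 (lmFit, eBayes with trend, 10.7 prior and 2 residual degrees of freedom) compared 3 treated chips with 1 vehicle chip (two-sided; Benjamini-Hochberg); the test was tried on simulated data. The fit lends the vehicle chip the spread of the treated ones, although it averages 8 animals against 2, and the number of chips limits precision. A list gene is its brightest probe set. The members, the lists and the alternatives were chosen with earlier results of these data known. The text names every galectin probe set, list members that passed, those with the 2 smallest p in a list, defining markers, and the 3 genes nearest to Lgals1, Lgals3, Lgals4 and Lgals7; other genes were named after their values were seen. Alignments used Biopython 1.88.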

Additional observations from a re-analysis of the deposited data

How the results depend on the processing

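No paired analysis was possible because the vehicle group has 1 chip, so the groups share only 1 replicate number. The count of probe sets called, 8, was 5 with a pseudocount of 64 or centring on the 75th percentile, 4 with quantile normalization, 13 with robust eBayes, and 0 by limma without the filter or without the trend, where 776 and 456 had an unadjusted p under 0.05. It was 30 to 65 when a treated pool was left out (49, 65 and 30 without pools 1, 2 and 3); those fits keep the vehicle chip and have fewer residual degrees of freedom. A filter on the mean log2 value, added after seeing the data, gave 10. Of the galectin probe sets, limma called 2 in the main setting, 1 with a pseudocount of 64, with the filter at the 60th percentile, or with centring on the 75th percentile or the median, and 0 with quantile normalization, without the filter or without the trend, where 4, 4 and 2 had an unadjusted p under 0.05. The cause was not tested, except that Lgals7 falls under the 60th percentile filter. The count was 2 to 2 without a treated pool. Lgals1 reversed without pool 1, with a range of -0.038 to 0.14 over the fits without a pool. The other galectin probe sets kept their direction under all alternatives that tested them, and none but Lgals4 and Lgals7 passed under any. The mean of the Lgals8 probe sets gave the same direction as the brighter one. Scaling moved the median of all probe sets by under 0.1 on the log2 scale.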

Other observations

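Other galectin-type genes on the chip lie outside the list and were looked at after its values were seen. Lgals2, a prototype galectin of the digestive tract, went from 3552 on the vehicle chip to signals of 4748, 3555 and 3460 on pools 1, 2 and 3. Its high value in pool 1 was not shared by the other pools, which lay near the vehicle chip, and the difference of 0.13 in log2(signal + 16) did not pass (limma adjusted p = 0.9998). Lgalsl, a galectin-like protein, had 725.7 against 397.0, 786.0 and 511.1 on its brighter probe set, with a difference of -0.41 that did not pass (limma adjusted p = 0.9998), and 56.7 against 102.1, 63.9 and 74.0 on its dimmer one, which was not tested.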
